A study of Mus musculus with 8 samples.

Results

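The genes described are the TAM receptors, the molecules that bridge them and the integrins to dying cells, and genes of the engulfment machinery, in mouse adipose tissue macrophages (ATMs). The 10 genes were the receptors Mertk, Axl and Tyro3, the bridging molecules Gas6, Pros1, Mfge8 and Thbs1, and the engulfment genes Elmo1, Dock1 and Gulp1. They were found by exact symbol in the probe annotation of the array, keeping probe sets with 1 symbol. All 10 were measured, each by 1 probe set, among 18820 genes.

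ATMs were taken from epididymal fat of male wildtype C57Bl/6 mice fed a high-fat diet (HFD, obese) or a low-fat diet (LFD, lean). There were 4 separate experiments and 8 arrays, with 1 HFD and 1 LFD array in each experiment, and each array held RNA pooled from several mice. The LFD gave 10 kcal% from fat throughout, and the sample titles name lard for both diets. The HFD gave 45 kcal% in experiments 1 and 3 and 60 kcal% in experiments 2 and 4, and feeding lasted 16, 15, 16 and 10 weeks in experiments 1, 2, 3 and 4. Cells were enriched by magnetic beads against the macrophage surface antigen F4/80, so other cells that stayed on the column could contribute RNA to the same array. A lower level of a transcript from fewer cells of a type cannot be told apart from less RNA per cell.

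TAM receptors are receptor tyrosine kinases on macrophages and other phagocytes. Their ligands Gas6 and protein S bind phosphatidylserine, a lipid that dying cells expose on the outer face of the plasma membrane, and so tether the corpse to the phagocyte. Mfge8 binds the same lipid and hands the corpse to alpha-v integrins, and thrombospondin 1 links corpses to integrins and Cd36. Inside the phagocyte, Elmo and Dock proteins together activate the small GTPase Rac, which drives the actin movement that closes the phagocytic cup, while Gulp1 is an adaptor for engulfment receptors. In obese fat, macrophages gather around dead adipocytes, which makes corpse clearance a central task of these cells. TAM signalling is also known to restrain inflammatory cytokine output.

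The arrays of experiment 1 stood apart in their cell markers. Adgre1, which encodes F4/80, was at a log2 level of 6.54 (LFD) and 8.58 (HFD) in experiment 1 and between 9.95 and 10.95 on the other 6 arrays. The mean level of 9 of 10 macrophage markers was 6.84 and 8.37 in experiment 1, against 9.79 to 10.43 elsewhere. The mean of 18 endothelial markers was 10.46 and 10.10 in experiment 1, against 5.59 to 8.91 elsewhere. Results for the 10 genes are therefore also given without experiment 1. No gene of the 18820 passed an adjusted p of 0.05 in limma, with or without experiment as a block, and the smallest adjusted p values were 0.982 without it and 0.0508 with it.

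Axl, Mfge8 and Gas6 were the genes of the 10 whose level moved one way in all 4 experiments. Axl and Mfge8 were higher in ATMs from obese than from lean mice in each experiment, by 1.35-fold and 3.15-fold in the mean. Gas6 was lower in each experiment, and was 1.42-fold higher in lean than in obese ATMs. None of the 10 passed the adjusted test, for which the background was also 0% of genes. At an unadjusted p under 0.05 in limma without a block, Mfge8 was the 1 gene higher of the 10 and none was lower, when 3.30% of all genes were higher and 1.51% were lower. With experiment as a block, Axl and Mfge8 were higher and Gas6 was lower at that level, when 7.95% of all genes were higher and 4.16% were lower. Being above the LFD array in all 4 experiments, as for 2 of the 10, held for 11.0% of all genes, and being below it in all 4, as for 1 of the 10, held for 7.43%. These 2 shares are over all 18820 genes, 3371 of which had a difference of exactly 0 in an experiment and so could not count. No gene of the 10 had every HFD array above or below every LFD array, which held for 1.19% and 0.680% of all genes. The median difference of the 10 was -0.01 on the log2 scale and that of all genes was 0.0049.

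The promoters of these 3 genes are shown because they carry the differences that kept 1 direction. Each runs from 250 bases before to 50 bases after the transcription start, read 5′ to 3′ on the strand of the gene, from RefSeq on GRCm38.p6. Capitals mark matches, on either strand, to the letters GGGCGG of the GC box, which Sp family factors bind, and to GAGGAA, the core of the site of the myeloid factor PU.1. The windows are chr7:25788684-25788983 for Axl, chr7:79149011-79149310 for Mfge8 and chr8:13494486-13494785 for Gas6, and all 3 genes lie on the minus strand.
Axl: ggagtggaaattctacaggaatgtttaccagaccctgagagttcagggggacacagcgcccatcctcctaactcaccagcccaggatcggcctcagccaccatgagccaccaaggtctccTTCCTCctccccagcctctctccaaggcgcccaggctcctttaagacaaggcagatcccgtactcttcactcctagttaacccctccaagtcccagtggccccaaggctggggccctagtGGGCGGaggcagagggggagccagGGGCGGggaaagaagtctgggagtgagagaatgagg
Mfge8: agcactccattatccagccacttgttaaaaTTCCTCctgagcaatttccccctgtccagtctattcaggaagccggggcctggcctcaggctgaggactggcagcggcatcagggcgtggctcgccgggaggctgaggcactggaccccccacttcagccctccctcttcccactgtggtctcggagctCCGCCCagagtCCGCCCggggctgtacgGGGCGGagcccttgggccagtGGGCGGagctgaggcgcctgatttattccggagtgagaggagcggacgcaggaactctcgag
Gas6: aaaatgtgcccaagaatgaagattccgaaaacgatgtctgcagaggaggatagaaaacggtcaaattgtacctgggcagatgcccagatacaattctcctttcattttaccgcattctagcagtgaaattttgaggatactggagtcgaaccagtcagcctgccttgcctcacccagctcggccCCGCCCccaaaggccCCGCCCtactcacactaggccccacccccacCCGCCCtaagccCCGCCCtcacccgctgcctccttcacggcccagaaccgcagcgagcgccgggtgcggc
Positions are counted from the start site, with negative values before it. Axl held 2 GC boxes, at -10 and 14, and 1 PU.1 core on the opposite strand at -130. Mfge8 held 4 GC boxes between -61 and -12 and 1 PU.1 core on the opposite strand at -220. Gas6 held 4 GC boxes, all on the opposite strand, between -66 and -8, and no PU.1 core. At least 1 GC box stood in 35.7% of 32851 promoter windows of this length and a PU.1 core in 28.3%. Searches for the AP-1 site TGANTCA (in 7.81% of windows), the E-box CACGTG (7.15%), the TATA box TATAAA (13.6%) and the nuclear receptor motif AGGTCA (16.3%) found no match in these 3 windows. Of the other 7 genes, 6 matched the promoter table, and each of these 6 held at least 1 GC box in 1 window. Elmo1 had 2 windows in the table, and the second held no GC box. The windows of the members with a GC box were 57.7% (Gulp1) to 73.3% (Tyro3) G or C, against a median of 52.7% over all promoter windows. The second window of Elmo1 was 46.0% G or C. The share of windows of like G and C content that hold a GC box was not computed. PU.1 cores also stood in the first window of Elmo1 (2) and in that of Dock1 (1), and neither gene kept 1 direction in all 4 experiments. Mertk, Tyro3, Pros1 and Gulp1 held no PU.1 core.

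Among the TAM receptors, Axl, the receptor that acts mainly with Gas6, was at 8.34, 8.78, 8.97 and 8.95 on the LFD arrays of experiments 1 to 4 (log2 level). It was at 8.65, 9.47, 9.51 and 9.16 on the matching HFD arrays. The groups overlapped, because the HFD array of experiment 1 lay below 3 of the 4 LFD arrays, but the HFD array was the higher of each pair. HFD minus LFD was 0.31, 0.69, 0.54 and 0.21 in experiments 1 to 4, with a mean of 0.44 (SE 0.23, 95% interval -0.09 to 0.96, limma adjusted p = 0.982). With experiment as a block the limma interval was 0.17 to 0.70, with an unadjusted p of 0.00801 and an adjusted p of 0.222. Without experiment 1 the difference was 0.48. The macrophage marker mean moved by 1.53, -0.15, -0.49 and 0.01 in the same 4 pairs, and its part in the difference of Axl was not tested. The mean of 6 mast cell and eosinophil markers, set beside Axl after the values were seen, moved by -0.05, 1.33, 0.91 and 0.02. Its largest differences were in the 2 pairs in which Axl differed most. Of these 6 markers, 3 were dim (log2 level of 4.32 or less) on more than 4 arrays. The part of these markers in the difference of Axl was not tested.

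Mertk, the TAM receptor typical of tissue-resident macrophages, was at 7.87, 9.05, 8.95 and 8.44 on the LFD arrays and at 8.29, 8.79, 8.42 and 8.75 on the HFD arrays. The groups lay over each other, and the lowest array was the LFD array of experiment 1, where Adgre1 was also lowest. It was higher on HFD by 0.42 and 0.31 in experiments 1 and 4, while experiments 2 and 3 gave -0.26 and -0.53. The mean difference was -0.02 (SE 0.27, 95% interval -0.64 to 0.61, limma adjusted p = 0.999), which leaves room for a change of either sign, and it was -0.16 without experiment 1. Its diet means were 8.58 ± 0.54 (SD, n = 4) for LFD and 8.56 ± 0.25 (SD, n = 4) for HFD.

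Tyro3, the TAM receptor best known from the nervous system, was dim in ATMs. It lay between 3.55 and 3.86 on all 8 arrays, below the log2 level of 4.32 (an intensity of 20) taken here as the limit for a dim probe set. On 4 of the arrays its deposited value was the same to 5 decimals, at 3.72. HFD minus LFD was 0.02 (SE 0.08, 95% interval -0.16 to 0.21) and 0.078 without experiment 1, and at such a signal no order of the arrays can be read.

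**Figure D1:**
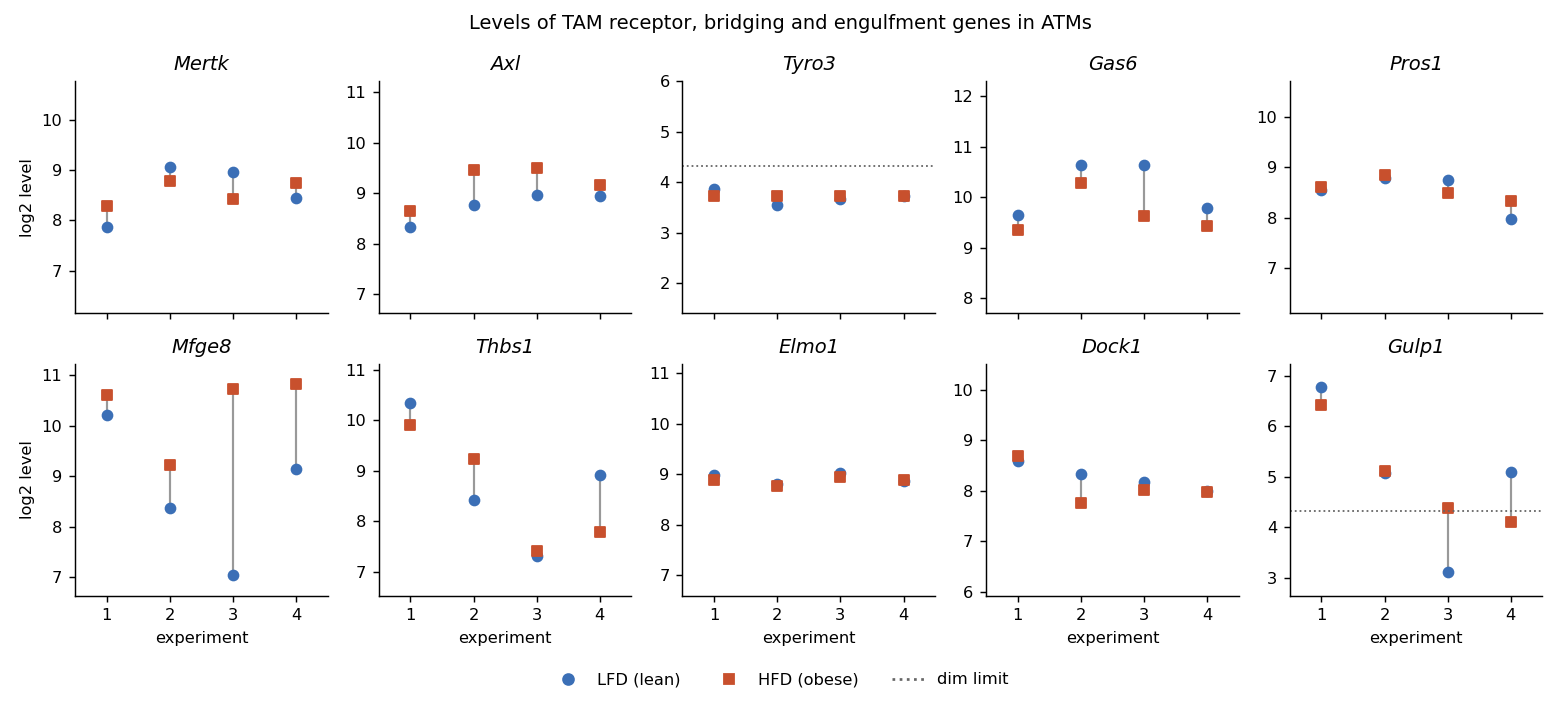
Log2 level of each of the 10 genes on the LFD (circles) and HFD (squares) array of each experiment (x axis), joined by a line, with the dim limit dotted where it is in range. The square is the higher in all 4 experiments for Axl and Mfge8 and the lower in all 4 for Gas6, while Gulp1 and Thbs1 are highest on the 2 arrays of experiment 1.

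Of the bridging molecules, Gas6, the ligand of all TAM receptors, was at 9.65, 10.64, 10.64 and 9.78 on the LFD arrays and at 9.36, 10.28, 9.63 and 9.44 on the HFD arrays. The HFD array was the lower of each pair, but the groups overlapped: the HFD array of experiment 2 lay above the LFD arrays of experiments 1 and 4. HFD minus LFD was -0.29, -0.36, -1.01 and -0.34, with a mean of -0.50 (SE 0.31, 95% interval -1.21 to 0.21, limma adjusted p = 0.988). With experiment as a block the limma interval was -0.86 to -0.14, with an unadjusted p of 0.0147 and an adjusted p of 0.278. Experiment 3 carried the largest difference. Without it the blocked difference was -0.33, with an unadjusted p of 0.0148 in limma, and without experiment 1 it was -0.57. The mean of 4 B cell markers, set beside Gas6 after the values were seen, was also lower on HFD in each pair. It differed by -0.24, -0.25, -0.51 and -0.46, with 3 of the 4 markers dim on all arrays, and its part in the difference of Gas6 was not tested. Axl and its ligand Gas6 thus differed in opposite directions within each of the 4 pairs.

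Mfge8, or lactadherin, was at 10.21, 8.36, 7.04 and 9.15 on the LFD arrays and at 10.61, 9.22, 10.72 and 10.83 on the HFD arrays. The HFD arrays of experiments 1, 3 and 4 lay above all LFD arrays, and that of experiment 2 lay above 3 of the 4. HFD minus LFD was 0.40, 0.86, 3.69 and 1.68, with a mean of 1.66 (SE 0.68, 95% interval 0.08 to 3.24, limma unadjusted p = 0.0422 and adjusted p = 0.982). With experiment as a block the limma interval was 0.31 to 3.00, with an unadjusted p of 0.0239 and an adjusted p of 0.325. Experiment 3, in which the LFD array was the lowest of all 8, had the largest difference. Without it the blocked difference was 0.98, with an unadjusted p of 0.0136 in limma, and without experiment 1 it was 2.07. Its mean difference exceeded that of 99.7% of all genes in size, and its range over the 8 arrays was wider than that of 97.7%.

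Pros1, which encodes protein S, was at 8.55, 8.79, 8.75 and 7.97 on the LFD arrays and at 8.61, 8.84, 8.49 and 8.33 on the HFD arrays. The pairs differed by 0.06, 0.05, -0.26 and 0.36, with a mean of 0.05 (SE 0.20, 95% interval -0.41 to 0.52, limma adjusted p = 0.999), and 0.05 without experiment 1. Experiment accounted for 82.0% of its variance over the 8 arrays and diet for 1.02%. Thbs1, a matricellular protein that blood vessels and platelets also make, was at 10.34, 8.42, 7.31 and 8.92 on the LFD arrays and at 9.91, 9.23, 7.41 and 7.79 on the HFD arrays. It was highest on both arrays of experiment 1. Its 4 differences were -0.43, 0.81, 0.10 and -1.12, with a mean of -0.16 (SE 0.76, 95% interval -1.93 to 1.62) and -0.07 without experiment 1, with mixed signs between pairs. Experiment accounted for 88.2% of the variance of Thbs1 and diet for 0.557%.

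Of the engulfment genes, Elmo1, the scaffold that binds Dock proteins, was the steadiest of the 10. It lay between 8.81 and 9.02 on the LFD arrays and between 8.76 and 8.95 on the HFD arrays, with diet means of 8.92 ± 0.10 and 8.87 ± 0.076 (SD, n = 4 each). HFD minus LFD was -0.05 (SE 0.08, 95% interval -0.24 to 0.13), or -0.03 without experiment 1, and its range over the 8 arrays was wider than that of only 7.2% of all genes. Dock1, the exchange factor that switches on Rac, was at 8.58, 8.34, 8.18 and 8.00 on the LFD arrays and at 8.69, 7.76, 8.03 and 7.98 on the HFD arrays. The 2 arrays of experiment 1 were the highest, and HFD was lower in experiments 2, 3 and 4, by 0.58, 0.16 and 0.02. The mean difference of Dock1 was -0.16 (SE 0.22, 95% interval -0.66 to 0.34, limma adjusted p = 0.999), and -0.25 without experiment 1.

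Gulp1 was the engulfment gene that varied most between arrays. It was at 6.77, 5.08, 3.11 and 5.09 on the LFD arrays and at 6.42, 5.11, 4.38 and 4.11 on the HFD arrays, and 2 of these values were below the dim limit. Both arrays of experiment 1 stood above all others, and the LFD array of experiment 3 was lowest. From experiment 1 to 4 the difference was -0.35, 0.03, 1.26 and -0.98, with a mean of -0.01 (SE 0.81, 95% interval -1.88 to 1.86, limma adjusted p = 0.999), and 0.10 without experiment 1. The interval is wide enough to hold changes of over 3-fold in either direction. Experiment accounted for 86.5% of the variance of Gulp1.

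**Figure D2:**
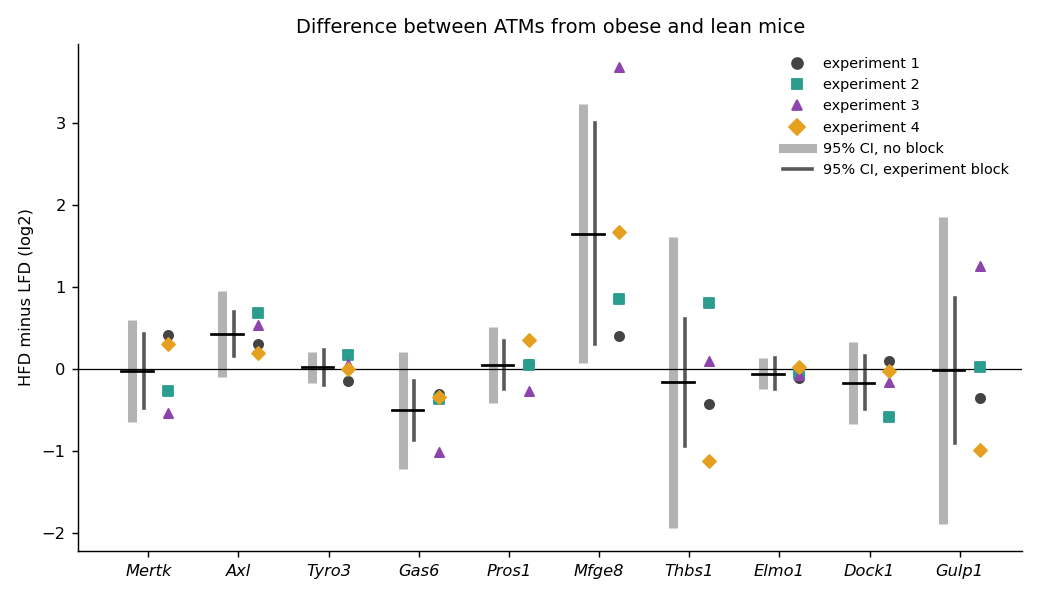
HFD minus LFD (log2) for each of the 10 genes, with a point for each experiment, a tick at the mean and 95% limma intervals without a block (wide grey bars) and with experiment as a block (thin bars). Of the blocked intervals, those of Axl, Mfge8 and Gas6 leave out 0, of the others only that of Mfge8 does, and the points of Mfge8 spread from 0.40 to 3.69.

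Endothelial, mural and fibroblast markers were present on the arrays, and their level differed between experiments and diets. The mean of 18 endothelial markers ranged from 5.59 to 10.46 on the LFD arrays and from 7.24 to 10.10 on the HFD arrays, the mean of 8 mural markers from 5.15 to 9.33 and from 6.46 to 9.26, and the mean of 10 fibroblast markers from 5.83 to 7.93 and from 7.10 to 8.69. HFD minus LFD of the endothelial mean was -0.36, -0.84, 1.99 and -1.67 in experiments 1 to 4. The mural mean differed by -0.08, -0.15, 1.64 and -1.09 and the fibroblast mean by -0.01, 0.77, 1.27 and -0.47. Mfge8, which endothelial cells, pericytes and fibroblasts also make, had its largest difference in experiment 3, where all 3 means were higher on HFD. In experiment 4 it was 1.68 higher on HFD and all 3 means were lower. In experiment 2 it was 0.86 higher, the endothelial and mural means were lower and the fibroblast mean was higher.

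Gulp1 and Thbs1 were highest on the 2 arrays of experiment 1 and lowest on the LFD array of experiment 3, which is also the order of the extremes of the endothelial and mural means. Mertk and Axl were lower in experiment 1 than elsewhere, by 0.65 and 0.64 in the mean of its arrays, and Gulp1, Thbs1 and Mfge8 were higher by 2.11, 1.95 and 1.19. Macrophage markers were lower and endothelial markers higher in that experiment, as given above. The part of these other cell types in the levels and differences of the 10 genes was not tested. Markers of lymphocytes and granulocytes were mostly near or below the dim limit. The T cell mean (6 of 7 markers) lay between 3.63 and 4.13, with Cd3d, Cd3g, Cd8a and Cd5 dim on all arrays. The neutrophil mean (5 of 6) lay between 3.31 and 4.06, with S100a8 and S100a9 dim on all arrays, and the B cell mean (4 of 5) between 3.76 and 4.38, with Cd79a, Ms4a1 and Pax5 dim. The dendritic cell mean (6 markers) lay between 4.13 and 4.84, the mean of mast cell and eosinophil markers (6) between 3.60 and 4.99, the mesothelial mean (6 of 7) between 3.81 and 4.83 and the adipocyte mean (5 of 6) between 4.36 and 5.87.

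**Figure D3:**
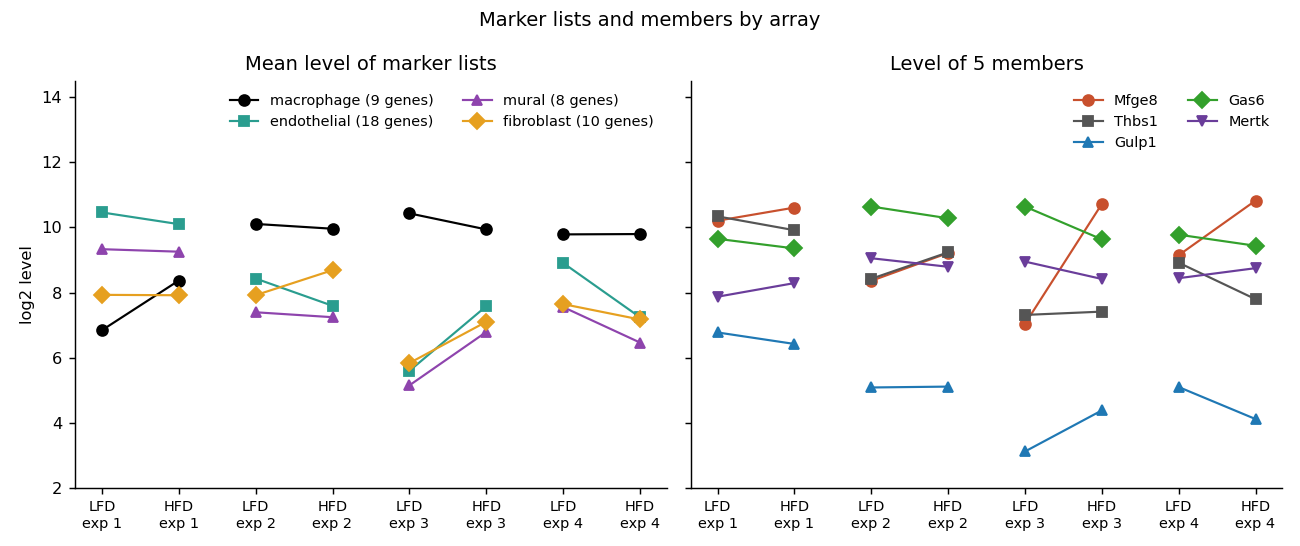
Mean log2 level of macrophage, endothelial, mural and fibroblast markers on each array (left) and log2 level of 5 of the 10 genes (right), with the LFD and HFD arrays of 1 experiment joined. The macrophage mean is lowest in experiment 1 (6.84 and 8.37), where the endothelial mean is highest and Gulp1 and Thbs1 are highest. On HFD, Mfge8 and the endothelial mean are both higher in experiment 3, and in experiment 4 Mfge8 is higher and the endothelial mean lower.

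The 2 HFDs allowed a comparison of the diet difference at 60 kcal% with that at 45 kcal% fat. No gene of the 10 differed at an unadjusted p under 0.05 in the limma interaction, when 3.95% of all genes did, and adjusted p values of the 10 ranged from 0.951 to 0.999, with 0% of all genes passing. The interaction was -0.78 for Mfge8 (95% interval -3.79 to 2.23), 0.30 for Gas6 (-0.46 to 1.05) and 0.02 for Axl (-0.61 to 0.66). For Mertk it was 0.08 (-0.98 to 1.15), and for Gulp1 it was -0.93 (-2.66 to 0.80). The intervals were wide against the differences themselves. Fat content lay with the experiment and the weeks of feeding, which cannot be told apart from it.

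Beyond the 10 genes, 117 of 124 genes of corpse clearance that were put in 7 lists were measured. None passed the adjusted test with or without the block. At an unadjusted p under 0.05 with experiment as a block, 27 were higher and 5 lower on HFD, and 28 were higher and 9 lower in all 4 experiments. The median difference of the 117 was 0.10, against 0.0049 for all genes. Because 7.95% of all genes were higher and 4.16% lower by the blocked rule, the shares of 23.1% and 4.27% here describe these genes on these arrays only. In all 4 experiments 23.9% were higher and 7.69% lower, against 11.0% and 7.43% of all genes, so the share lower was near that of all genes. The shares of all genes include dim genes. Of the 18820 genes, 10623 were above the dim limit on 4 or more arrays, while 13 of the 117 were dim on more than 4. A difference of exactly 0 in an experiment, held by 3371 of the 18820, cannot count as 1 sign in all 4. In the blocked limma fit without dim probe sets, 1716 of 10623 genes were at an unadjusted p under 0.05, against 2280 of 18820. The counts of the 117 include experiment 1, where the macrophage marker mean was 1.53 higher on HFD. The part of cell makeup in them was not tested. SEs given below for genes of the lists are from the limma fit without the block, also where a blocked result stands beside them.

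The list of other phosphatidylserine and apoptotic cell receptors held more of the higher genes than any other of the 7 lists. Of its 20 measured genes, 9 were higher in the blocked limma fit at an unadjusted p under 0.05 and none was lower, with a median difference of 0.27. Itgav, the alpha-v integrin that receives corpses from Mfge8, was 1.17 higher on HFD (SE 0.31), by 0.99, 1.61, 1.22 and 0.86 in experiments 1 to 4 (blocked limma adjusted p = 0.0749). Its partner Itgb5 was 0.78 higher (SE 0.26), and Mfge8, Itgav and Itgb5 were each higher on HFD in each pair. Itgb3, the other beta chain that forms an Mfge8 receptor with Itgav, named here after its values were seen, was lower on HFD in each pair, at -0.51, -0.10, -0.08 and -0.10, with a mean of -0.20 (SE 0.31), and passed in neither fit. Trem2, a lipid receptor of lipid-laden macrophages, was 1.91 higher (SE 0.79), by 3.07, 1.67, 1.86 and 1.03 (blocked limma adjusted p = 0.121).

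Among 15 of 16 other bridging molecules and opsonins, 4 were higher by the same blocked rule and none was lower. Their median difference was 0.22, and 0.06 without experiment 1. Anxa1, an annexin that dying cells release and that limits neutrophil entry, was 1.40 higher (SE 0.36), by 1.29, 1.43, 1.90 and 0.97 (blocked limma adjusted p = 0.0672). Anxa5, which binds phosphatidylserine, was 0.44 higher (SE 0.12), and calreticulin (Calr), an eat-me signal, was 0.26 higher (SE 0.10).

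Of 22 of 23 other engulfment signalling genes, 4 were higher in the blocked fit and none was lower. Elmo2, a paralogue of Elmo1, was 0.43 higher (SE 0.20) and Dock5, of the Dock1 family, 0.45 higher (SE 0.24), whereas Rac1 differed by -0.08 (SE 0.07) and did not pass. In phagosome maturation (19 of 22 measured) 3 genes were higher and 1 lower, with Slc12a4 0.59 higher (SE 0.22), Dync1i2, a dynein chain, 0.31 higher (SE 0.13) and Atg7, an autophagy enzyme, 0.43 higher (SE 0.26). Of 10 do-not-eat-me genes, 2 were higher and none was lower. Among the 2 was Sirpa, the receptor for Cd47, at 0.70 (SE 0.59 without the block, blocked limma unadjusted p = 0.0169).

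Of 10 find-me genes, 2 were higher and 2 lower in the blocked fit. Cx3cr1, the fractalkine receptor that draws phagocytes to dying cells, differed by -1.80 (SE 0.47), with -1.08, -2.32, -1.15 and -2.65 in experiments 1 to 4 (blocked limma adjusted p = 0.121). P2ry2, a nucleotide receptor, was 0.53 higher (SE 0.27) and Sphk1, which makes sphingosine 1-phosphate, 0.50 higher (SE 0.17). Among 21 of 23 genes of TAM output, receptor shedding and transcriptional control, 3 were higher and 2 lower. Nr1h3, which encodes the sterol sensor LXR alpha, an inducer of Mertk, was 0.81 higher (SE 0.29), by 0.09, 1.25, 1.08 and 0.81, while Mertk itself differed by 0.42, -0.26, -0.53 and 0.31. Akt1 (0.18, SE 0.10) and Ppard (-0.13, SE 0.08) kept 1 sign in all 4 experiments without passing at 0.05 in either fit. Among the genes counted in these lists that the naming rule left out, and named here after their values were seen, Havcr2, Cd300a, Cd300lb, Lrp1, Olr1, Lgals3, Rhog, Vav3, Cd52, Adam17 and Pparg were higher and Lrp5, P2ry12, Socs3 and Maf were lower in the blocked fit. Cd36, a partner of Thbs1, was the remaining one, and was 0.33 higher (SE 0.15), by 0.17, 0.33, 0.57 and 0.25 in experiments 1 to 4.

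**Figure D4:**
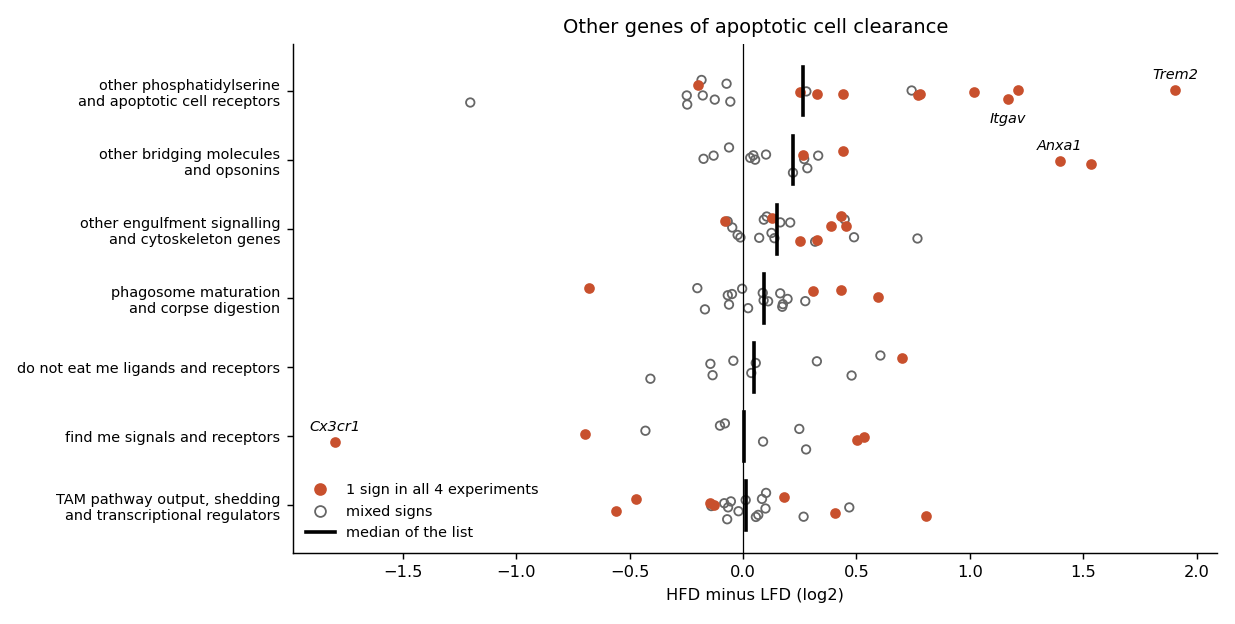
HFD minus LFD (log2) for the 117 other genes of apoptotic cell clearance, by list, with filled points for genes of 1 sign in all 4 experiments, open points for mixed signs, and a bar at the median of the list. The list medians run from 0.0040 for find-me genes to 0.27 for receptors, and the lowest and highest points are Cx3cr1 at -1.80 and Trem2 at 1.91.

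The genes whose level most resembled that of Mertk over the 8 arrays, among 10623 genes above the dim limit on 4 or more arrays, were Tfrc, Cd209b, Cd209f and Ms4a8a (Pearson r from 0.97 to 0.98). Tfrc is the transferrin receptor and the Cd209 genes encode lectins. For Axl they were Lnpk, Fance, Ccr3 and Cab39 (r from 0.98 to 0.99), and for Gas6 Arhgef3, Fchsd2, Polb and Rcn3 (r from 0.96 to 0.98). With the mean of each experiment removed, the most similar genes were others: Tnni3, Stat5a, Vps8 and Dgkd for Mertk, Ccne1, Rab29, Rdh11 and Rragd for Axl, and Ddx17, Pld1, Cd79b and Gtdc1 for Gas6. These correlations over 8 arrays share the experiment and the cell makeup of each array, and they are given as a description only.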

How the data were processed

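RNA of F4/80-selected epididymal ATMs, pooled from several mice per array, was hybridised to 8 Affymetrix arrays, 4 per diet. The authors deposited log2 values of 35556 features, made with RMA per the submitters' processing notes (version not given in the sources used here). Array medians lay between 4.25 and 4.39. The annotation gave 1 symbol to 21218 features, several to 1881 and none to 12457, and features with 1 symbol gave 18820 genes, each by its brightest probe set. HFD and LFD were compared over all genes by a two-sided limma test (version 3.58.1 on R 4.3.3, with lmFit followed by eBayes), and p values were adjusted by Benjamini-Hochberg at 0.05. The number of arrays limits the precision. Without a block, p values measure the spread between pools of different experiments. With the block, they measure the spread of the paired difference over experiments. Probe sets at or under log2 4.32 (intensity 20) were called dim. The scripts were tested on simulated data.

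The labels give each array the number of its experiment, and the arrays were paired by this number. The deviations of same-numbered arrays from the mean of their diet correlated over genes (r of 0.889, 0.357, 0.652 and 0.186 in experiments 1 to 4). Arrays of different numbers were not compared in this way, so these r values do not test the pairing. The fit with experiment as a block is given where it changes a call. The named genes were all 10 members, from each list of the pathway up to 3 genes with the smallest unblocked p among those of 1 sign in all 4 experiments, and the 4 genes most alike to Mertk, Axl and Gas6. The members and lists were chosen with earlier results of these data known. Genes of the lists not in the annotation used were not analysed here. Promoters came from the RefSeq table of GRCm38.p6, in which 9 of the 10 members were matched. Alternatives were other blocks, centrings, filters, subsets of experiments and the methods' t-test.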

Additional observations from a re-analysis of the deposited data

Results flagged for a closer look

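Of 30 groups of 4 values checked, 3 held a value far from the other values of its group, measured as the gap to the nearest value over the range of the group. Chance flags about 1 in 20 such groups. For Mfge8 on the HFD arrays the ratio was 0.866, because the array of experiment 2, at 9.22, lay below the other 3, at 10.61 to 10.83. For HFD minus LFD of Gas6 the ratio was 0.905, because experiment 3, at -1.01, lay apart from -0.29 to -0.36 in the others. For Tyro3 on the HFD arrays the ratio was 1, because 3 arrays shared the same deposited value and the fourth was lower only past the second decimal, at a level below the dim limit.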

How the results depend on the processing

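Axl, Gas6, Mfge8, Elmo1 and Dock1 kept the direction of their difference in all 25 alternatives, and no member passed an adjusted p of 0.05 in any. An unadjusted p under 0.05 was met in 8 of 25 alternatives for Axl, 7 for Gas6 and 14 for Mfge8, and leaving out 1 array moved their differences over 0.30 to 0.62, -0.70 to -0.35 and 1.11 to 2.16.

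The number of genes at an unadjusted p under 0.05, 905 without a block, became 2280 with the replicate block of the paired arrays, 2123 with it as a random block, 1678 without experiment 1, 1961 without experiment 1 and with the block, 579 without experiment 4, 193 at 45 kcal% alone and 2013 at 60 kcal% alone, and 521 to 1456 without 1 array. Of 3 alternatives added after seeing the data, the block with median centring gave 1994 such genes and 70 at an adjusted p under 0.05, the block without dim probe sets 1716 and 25, and the block without experiment 3 2659 such genes. Median centring also moved the split of higher and lower genes from 621 and 284 to 312 and 402. The methods' t-test gave 524 higher and 286 lower, and 0 after Benjamini-Hochberg.

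The number of members at an unadjusted p under 0.05 was 1 without a block, 3 with the replicate block, fixed or random, 3 in each added alternative, 2 without experiment 1 (3 with the block), and 0 without experiment 4, with quantile normalization, in the methods' t-test and at 45 or 60 kcal% alone, and 0 to 2 without 1 array. Without experiment 1, 2 members were lower on HFD in every experiment in place of 1. Dock1 joined Gas6, at -0.58, -0.16 and -0.02 in experiments 2, 3 and 4. The share of all genes lower in each of these experiments was not computed. The cause of these shifts was not tested.

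Members with differences near 0 changed sign. Mertk was 0.023 at 60 kcal% alone, 0.15 with the block and without experiment 3, and -0.25 to 0.14 without 1 array. Tyro3 was -0.028 with median centring, with or without the block, -0.039 at 45 kcal% alone and -0.026 to 0.078 without 1 array. Pros1 was -0.049 without experiment 4, -0.10 at 45 kcal% alone and -0.13 to 0.15 without 1 array. Gulp1 was 0.10 without experiment 1, with or without the block, 0.31 without experiment 4, 0.45 at 45 kcal% alone and -0.65 to 0.57 without 1 array. Thbs1 was 0.16 without experiment 4 and -0.64 to 0.37 without 1 array.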

Other observations

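Some genes of the lists, chosen here after their values were seen, stood beside those of the report. Lgals3, or galectin-3, which binds sugars on dying cells, was 1.53 higher on HFD (SE 0.61), by 2.98, 1.39, 1.16 and 0.61 in experiments 1 to 4, and 12.08 ± 0.34 on the HFD arrays against 10.55 ± 1.33 on the LFD arrays (SD, n = 4). Lrp1, the receptor of calreticulin, was 0.77 higher (SE 0.32), by 1.26, 0.39, 0.82 and 0.63. Timd4, a phosphatidylserine receptor of resident macrophages, differed by 0.58, -2.15, -2.37 and -0.87 in experiments 1 to 4, with a mean difference of -1.20 (SE 0.85). None passed an adjusted p of 0.05 in limma, with or without the block. The SEs here are from the fit without the block. The complement gene C1qa, an opsonin, had mixed signs, with a mean difference of 0.10 (SE 0.79).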
